A study of Mus musculus with 15 samples.

Results

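Purinergic and NAD-sensing surface genes were examined in sorted invariant natural killer T (iNKT) cells from 4 lymphoid tissues. The group was set by gene name but with earlier results of these data known, so the counts called below are not those of a blind choice. It holds 7 of the 48795 genes in the deposited files. These are the ATP-gated channels P2rx7 and P2rx4, the ADP-ribosyltransferase Art2b, the NAD hydrolase Cd38, the ectonucleotidases Entpd1 (CD39) and Nt5e (CD73), and the adenosine receptor Adora2a. All 7 passed the filter on low counts that left 13600 genes. P2rx7 and Art2b are of interest because they mediate NAD-induced cell death while cells are being isolated.

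The cells were CD1d-tetramer+ TCRβ+ and negative for B220, CD11b, CD11c and CD8, from untreated WT C57BL/6 mice aged 6 weeks. Thymus, spleen and mesenteric lymph nodes (mLN) gave 4 libraries each, and inguinal lymph nodes (iLN) gave 3, numbered 2 to 4. The labels set replicates 3 and 4 in the batch called First (8 libraries) and replicates 1 and 2 in the batch called Second (7 libraries, of which 1 is iLN). They call the replicates biological but do not say whether each is 1 mouse or a pool, so that p-values measure the spread between libraries only. According to the study's methods, lymph nodes were digested with an enzyme mix that held NADase, whereas spleen and thymus were mashed. Digestion and lymph node origin therefore cannot be told apart. The preparation was the same for mLN and iLN, and the same for spleen and thymus.

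As background, ATP and NAD that leave stressed cells are read at the T cell surface. P2X7, a channel encoded by P2rx7, opens when extracellular ATP is high, and ARTC2.2, the product of Art2b, uses NAD to attach ADP-ribose to P2X7, which opens the channel without ATP and can kill the T cell. CD38 consumes NAD, CD39 converts ATP to AMP, CD73 converts AMP to adenosine, and the receptor encoded by Adora2a passes the adenosine signal on, which dampens T cell activation.

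Expected counts, RSEM's estimates of the fragments from each gene, summed to between 1152702 (thymus replicate 2) and 8670570 per library, with a median of 5327351. They are given as CPM, counts scaled to a common library size after TMM normalization, and levels of different genes are compared only as TPM, which corrects for transcript length. Markers of iNKT cells (Zbtb16, Cd3e, Cd3g, Cd4, Klrb1c and Slamf6) were present in every tissue, with summed levels of 1630 to 2750 CPM. Over 5 NKT17 markers (Ccr6, Il23r, Il1r1, Blk and Sdc1) the sum was 259 to 529 CPM in iLN against 35.4 to 71.7 in mLN, 4.68 to 17.1 in spleen and 10.2 to 21.5 in thymus. The sum over 6 NKT1 markers was 1510 to 2500 CPM in thymus, 1340 to 2680 in spleen, 1010 to 1390 in mLN and 999 to 1610 in iLN, and that over 6 NKT2 markers was 493 to 705, 474 to 592, 669 to 890 and 1090 to 1380 CPM in the same order. Most of the NKT2 sum in iLN was Icos (787 to 1010 CPM, at most 514 elsewhere). Gata3, Il4, Ccr4 and Il17rb overlapped between iLN and mLN, and Plac8 was lower in iLN (1.71 to 9.21 CPM) than in mLN (13.2 to 49.9). Sums over 5 regulatory T cell markers were 269 to 359 CPM in thymus, 428 to 530 in spleen, 463 to 638 in mLN and 701 to 811 in iLN. Of these markers, Il2ra was higher in iLN (192 to 314 CPM) than elsewhere (at most 155). Ikzf2, Foxp3, Ctla4 and Folr4 overlapped between iLN and mLN. Sums over 5 B cell markers were 77.3 to 142 CPM in thymus and 139 to 306 elsewhere. Most of each sum was Ighm, at 76.4 to 141 CPM in thymus and 135 to 233 elsewhere. In the LNs, Ms4a1, Cd79a, Cd79b and Pax5 were each at most 4.39 CPM. The sum was highest in spleen replicate 1, which had Pax5 at 36.8 and Ms4a1 at 31.2 CPM, whereas Pax5 was at 0 in all thymus libraries. Sums over 6 myeloid markers (Lyz2, Csf1r, Itgam, Itgax, Adgre1 and Cd14) were 1.11 to 3.79 CPM in thymus, 1.97 to 8.94 in iLN, 6.35 to 17.9 in mLN and 9.76 to 53.9 in spleen, highest in that spleen library. Itgam, Itgax, Adgre1 and Cd14 were at 0 in all iLN libraries, Adgre1 and Cd14 in all mLN libraries, and Cd14 in all thymus libraries. Red cell genes reached 117 CPM in spleen and at most 14.7 elsewhere, markers of CD8 or immature thymocytes 60.1 in thymus and at most 30.1 elsewhere, and of the stromal markers Col1a1, Cdh5 and Pdgfrb were at 0 in all LN libraries while Pecam1 was 26.5 to 102 CPM throughout.

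The 4 tissues differed in 4 of the 7 genes (P2rx7, Art2b, Cd38 and Nt5e) at a Benjamini-Hochberg adjusted p under 0.01 in edgeR's quasi-likelihood test with tissue and batch as factors, where 3.38% of the 13600 genes tested passed. Between pairs of tissues a gene was called at the same adjusted p and a fold change over 1.5. In thymus against spleen 2 of the 7 were called, both lower, beside 1.32% of all genes. In mLN against spleen 1 was called, higher, beside 0.654%. In iLN against spleen 4 were called, of which 3 were lower and 1 higher, beside 1.55%. In mLN against thymus 2 were called, both higher, beside 1.6%, and in iLN against thymus 1, higher, beside 1.5%. In iLN against mLN 3 were called, all lower, beside 0.471%. The mean of both LNs against the mean of spleen and thymus called 1, higher, beside 1.72%. The median log2 fold change over the 7 genes lay between -1.18 (iLN against spleen) and 1.02 (mLN against thymus), and over all genes tested it lay between -0.0127 and 0.027.

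**Figure D1:**
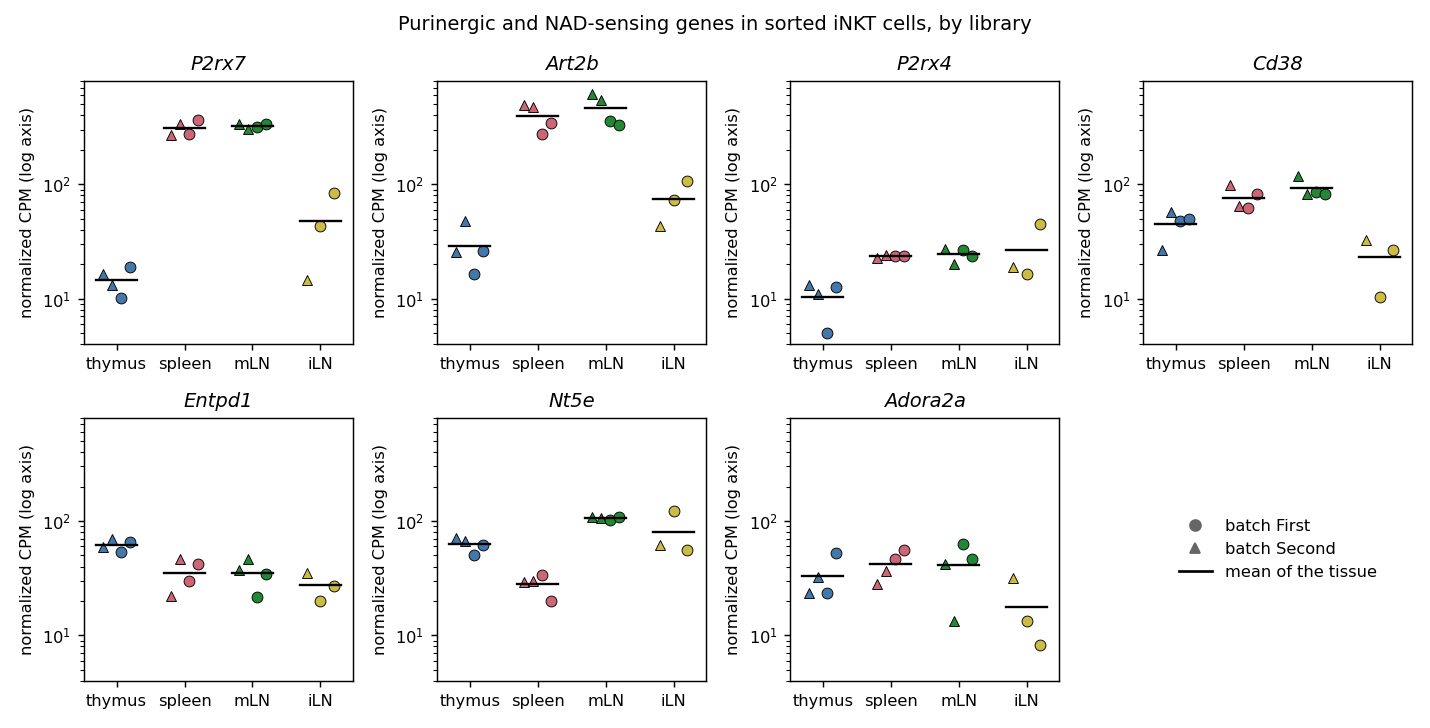
Normalized CPM (log axis) of each of the 7 genes in all 15 libraries, grouped by tissue; each point is a library, circles are batch First, triangles batch Second, and the line is the mean of the tissue. P2rx7 and Art2b stand at similar high levels in spleen and mLN and lower in thymus and iLN, whereas Nt5e is lowest in spleen, P2rx4 lowest and Entpd1 highest in thymus, and Adora2a overlaps between all tissues.

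P2rx7 was abundant in spleen and mLN iNKT cells and low in thymus and iLN. The gene (ENSMUSG00000029468) lies on the plus strand of chromosome 5 at chr5:122643911-122691432 in GRCm38, and its level was 16.3, 13.2, 10.2 and 19 CPM in thymus replicates 1 to 4. In spleen replicates 1 to 4 it was 268, 334, 273 and 363 CPM. In mLN replicates 1 to 4 it was 335, 305, 318 and 335 CPM, the tightest of the 4 groups relative to its level. In iLN replicates 2 to 4 it was 14.7, 43.3 and 84.0 CPM. Every spleen and mLN library was above every thymus and iLN library, spleen and mLN overlapped, and the lowest iLN library lay inside the thymus range.

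In the fit, P2rx7 was 20.8-fold lower in thymus than in spleen (log2 fold change -4.38 ± 0.35 SE, adjusted p = 3.66e-07 by edgeR's quasi-likelihood test). It was 7.13-fold lower in iLN than in spleen (-2.83 ± 0.37, adjusted p = 1.17e-04). Against mLN it was 7.45-fold lower in iLN (-2.90 ± 0.37, adjusted p = 2.03e-04). When only the mLN and iLN libraries were fitted, this difference was -3.06 and no longer called (adjusted p = 0.0118), and within batch First alone it was -2.35 (adjusted p = 0.0122). No difference between mLN and spleen was detected (0.06 ± 0.29, adjusted p = 0.962). The difference between iLN and thymus (1.54 ± 0.36, adjusted p = 0.0204) missed the threshold and varied by batch, since the mean in iLN was 4.37 times the thymus mean in batch First and 0.997 times in batch Second, which holds the single iLN replicate 2. Without that library it was 2.07 and called (adjusted p = 2.06e-04). Thymus means were 21.8-fold below spleen means in First and 20.4-fold in Second, and iLN means 5.0-fold and 20.5-fold below. In thymus P2rx7 rested on 18 to 132 counts per library, and leaving out the shallowest one, replicate 2, changed none of its calls. Against thymus, mLN was 21.7-fold higher (4.44 ± 0.35, adjusted p = 2.92e-07). In bulk RNA, fewer cells that express a gene and less of its RNA per cell cannot be told apart.

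Art2b, on the minus strand at chr7:101576970-101585600 (ENSMUSG00000030651), had the same order of tissues as P2rx7. Its level was 25.5, 47.9, 16.5 and 26.0 CPM in thymus replicates 1 to 4. In spleen it was 494, 477, 278 and 344 CPM. In mLN it was 615, 546, 357 and 330 CPM. The iLN replicates 2 to 4 had 43.5, 72.6 and 107 CPM. Again every spleen and mLN library exceeded every thymus and iLN library. Within spleen and mLN the batch Second libraries were all above the batch First libraries, which P2rx7 did not show.

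Art2b was 14.2-fold lower in thymus than in spleen (-3.83 ± 0.30, adjusted p = 3.24e-07 by edgeR). It was 4.78-fold lower in iLN than in spleen (-2.26 ± 0.32, adjusted p = 3.27e-04) and 5.51-fold lower in iLN than in mLN (-2.46 ± 0.32, adjusted p = 2.85e-04). Fitted on mLN and iLN alone, the last difference was -2.58 and no longer called (adjusted p = 0.0111). Against thymus, mLN was 16.4-fold higher (4.04 ± 0.31, adjusted p = 1.8e-07). The mLN and spleen levels differed by less than their spread (0.21 ± 0.26, adjusted p = 0.827). In iLN it was 2.98-fold higher than in thymus (1.57 ± 0.31, adjusted p = 0.00633), but the ranges overlapped, the ratio was 4.21 in batch First and 1.18 in batch Second, and the call was lost in 14 of 26 alternative settings. Among single libraries left out, it was lost without thymus replicates 1, 3 or 4, spleen replicates 1, 2 or 4, mLN replicates 3 or 4, and iLN replicates 3 or 4, with values of 1.13 to 1.64 and adjusted p of 0.0104 to 0.0459.

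The NKT17 marker sums were highest in iLN, where P2rx7 and Art2b were low, but so were the NKT2 sums (1090 to 1380 CPM) and regulatory T sums (701 to 811 CPM). Of the NKT2 and regulatory T markers, only Icos and Il2ra were higher in iLN than in mLN without overlap, whereas every NKT17 marker was. NKT17 sums were also higher in mLN (35.4 to 71.7 CPM) than in spleen (4.68 to 17.1 CPM), although P2rx7 and Art2b overlapped between these tissues. The same held for NKT2 sums (669 to 890 CPM in mLN, 474 to 592 in spleen). Within iLN the replicate with the lowest NKT17 sum (replicate 2, 259 CPM) had the lowest P2rx7 and Art2b, and the one with the highest (replicate 4, 529 CPM) had the highest. NKT2 sums had the same order, from 1090 CPM in replicate 2 to 1380 in replicate 4. Thymus, with NKT17 sums no higher than 21.5 CPM, had the lowest mean P2rx7 and Art2b. The myeloid marker sums also moved with P2rx7 and Art2b, being lower in thymus and iLN (at most 3.79 and 8.94 CPM) than in spleen (at least 9.76 CPM), while those of iLN and mLN (at least 6.35 CPM) overlapped. The part of any of these marker lists in the result was not tested. Leaving out spleen replicate 1, the library with B cell and myeloid markers, changed no call for P2rx7, and for Art2b it ended the call of iLN against thymus (1.56, adjusted p = 0.0106).

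**Figure D2:**
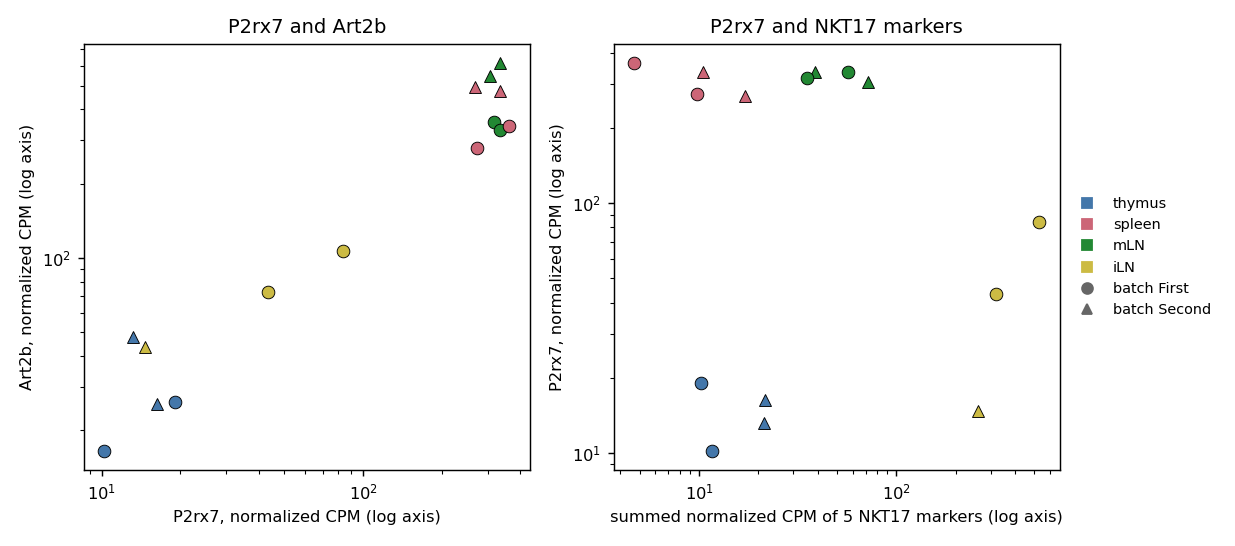
Left, normalized CPM of Art2b against P2rx7 in the 15 libraries (both axes log). Right, P2rx7 against the summed normalized CPM of 5 NKT17 markers (both axes log); colours are tissues, circles batch First and triangles batch Second. Spleen and mLN form a high cluster in both genes, thymus lies at the low end, and the iLN libraries lie between 14.7 and 84.0 CPM of P2rx7 at the highest marker sums.

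A neighbouring pseudogene is annotated next to Art2b and could share its reads. Art2a-ps (ENSMUSG00000092517) lies at chr7:101552453-101560865 on the same strand, 16104 bases from Art2b, and is annotated as a polymorphic pseudogene. Of the 2810 distinct stretches of the study's read length in the Art2b transcripts, 26 (0.925%) also occur in the Art2a-ps transcript and make up 2.25% of its own. At a word length of 31 bases the shares are 8.73% for Art2b and 20.0% for Art2a-ps. Art2a-ps was 2.75 to 10.2 CPM in thymus, 91.2 to 231 in spleen, 123 to 200 in mLN and 13.6 to 21.9 in iLN, and took 16.6% ± 8.5 (SD, n = 4), 29.8% ± 3.7, 26.2% ± 4.0 (n = 4 each) and 20.4% ± 8.1 (n = 3) of the counts of the pair. It was 29.1-fold lower in thymus than in spleen (-4.86 ± 0.31, adjusted p = 3.03e-08 by edgeR) and 9.06-fold lower in iLN (-3.18 ± 0.31, adjusted p = 9.29e-06). When the counts of the pair were summed, thymus against spleen was -4.08 ± 0.27 and iLN against thymus was 1.61 ± 0.27 (adjusted p = 0.00169). The sum was also higher in the mean of LNs than in that of spleen and thymus (0.87 ± 0.18, adjusted p = 0.00762), where Art2b alone was not called (0.89 ± 0.20, adjusted p = 0.0153).

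Over the 15 libraries, P2rx7 and Art2b were each the gene most like the other in log2 CPM among the 10146 genes that averaged 5 CPM or more (Pearson's r = 0.971, Spearman's rho = 0.818). The libraries fall into a high and a low cluster, which sets much of r, and per length Art2b was 1.51 to 5.88 times P2rx7 in thymus TPM, 1.13 to 2.6 times in spleen, 1.21 to 2.41 times in mLN and 1.48 to 2.78 times in iLN. The next most like gene was Gm4956 for P2rx7 (r = 0.962, rho = 0.853), a predicted gene with means of 0.123 CPM in thymus, 54.0 in spleen, 36.4 in mLN and 4.8 in iLN. For Art2b it was Art2a-ps (r = 0.965, rho = 0.896).

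Because P2rx7 and Art2b moved together, the 250 bases before their annotated starts are shown, read from RefSeq's promoter table for GRCm38.p6, 5′ to 3′ on the strand of the gene. RefSeq gives P2rx7 a pair of starts that are 6456 bases apart, and no transcript in the GENCODE annotation used here holds the first 40 bases from the second. The gene-level counts do not separate them. The Art2b start in the table is the first base of the start codon, so its 250 bases lie mostly in the first intron of the longer GENCODE transcript, whose first exon is at chr7:101585551-101585600. Capitals mark TGAGTCA or its reverse complement, the core bound by AP-1 (Fos and Jun), a motif chosen after the sequences had been seen.
P2rx7 first start, chr5:122643677-122643926, plus strand: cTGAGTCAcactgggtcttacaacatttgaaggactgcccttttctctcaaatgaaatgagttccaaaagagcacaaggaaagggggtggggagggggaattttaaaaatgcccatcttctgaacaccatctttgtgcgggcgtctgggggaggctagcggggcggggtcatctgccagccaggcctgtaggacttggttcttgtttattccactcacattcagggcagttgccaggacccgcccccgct
P2rx7 second start, chr5:122650133-122650382, plus strand: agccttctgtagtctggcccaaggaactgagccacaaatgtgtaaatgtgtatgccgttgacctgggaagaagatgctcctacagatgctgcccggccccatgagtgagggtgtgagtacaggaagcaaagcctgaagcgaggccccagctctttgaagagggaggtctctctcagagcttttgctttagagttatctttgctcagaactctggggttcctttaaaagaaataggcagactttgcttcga
Art2b, chr7:101581162-101581411, minus strand: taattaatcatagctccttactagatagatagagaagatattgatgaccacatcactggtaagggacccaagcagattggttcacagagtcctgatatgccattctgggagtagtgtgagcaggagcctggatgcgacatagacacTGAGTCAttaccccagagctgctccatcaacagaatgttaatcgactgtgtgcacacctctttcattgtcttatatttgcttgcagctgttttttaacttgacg
The heptamer occurred in the window of the first P2rx7 start and in that of Art2b, each time in the forward direction, but not at the second P2rx7 start or in any window of the other members, of which all but Adora2a have an entry. On either strand it was found in 4.46% of the 32851 promoter windows, each likewise the 250 bases before a start. The nuclear receptor half-site AGGTCA occurred in the window of the second P2rx7 start and in that of P2rx4, against 14% of all windows. The T-box core GGTGTG occurred in the window of the second P2rx7 start and in that of Art2b, against 16.3% of all windows. These are matches of letters only.

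P2rx4 encodes a second ATP-gated channel and lies 16111 bases downstream of P2rx7, at chr5:122707544-122729738 (ENSMUSG00000029470). Its log2 CPM went with that of P2rx7 over the 15 libraries at r = 0.727 and rho = 0.793. It was 13.1, 11, 5.0 and 12.6 CPM in thymus replicates 1 to 4. It was 22.8, 24.3, 23.5 and 23.8 CPM in spleen and 27.1, 20.3, 26.7 and 23.5 CPM in mLN. The level in iLN replicates 2 to 4 was 18.9, 16.6 and 44.7 CPM. All thymus libraries were below all others, and the 3 other tissues overlapped. No comparison was called, with the smallest adjusted p for iLN against thymus (1.34 ± 0.40, adjusted p = 0.0746 by edgeR) and -1.17 ± 0.37 for thymus against spleen (adjusted p = 0.131). The direction of iLN against spleen (0.18 ± 0.39) rested on iLN replicate 4, without which it was -0.43. The genes most like it were Sept8 (r = 0.875, rho = 0.675) and Lmo4 (r = 0.847, rho = 0.746). Of the other P2X receptor genes (P2rx1, P2rx2, P2rx3, P2rx5 and P2rx6), none passed the filter, and P2rx5 had the most counts, 12 over all libraries.

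Cd38, at chr5:43868553-43912375 (ENSMUSG00000029084), had its lowest mean in iLN. It was 26.9, 57.1, 48.2 and 49.4 CPM in thymus replicates 1 to 4. It was 98.8, 64.0, 61.9 and 81.5 CPM in spleen and 119, 82.1, 85.3 and 82.7 CPM in mLN. The iLN libraries, replicates 2 to 4, had 32.6, 10.4 and 26.8 CPM. Every spleen and mLN library was above every thymus and iLN library, as for P2rx7, but over a narrower span. Cd38 was 3.23-fold lower in iLN than in spleen (-1.69 ± 0.33, adjusted p = 0.00617 by edgeR) and 3.89-fold lower in iLN than in mLN (-1.96 ± 0.34, adjusted p = 0.00412). Both differences kept their direction within each batch, with ratios to spleen of 0.259 in First and 0.4 in Second, but both calls were lost in some settings. Against spleen the call was lost without iLN replicate 2, 3 or 4 and without spleen replicates 1, 3 or 4 (adjusted p = 0.0103 to 0.0257 over these and thymus replicate 3). On TPM it was -1.65 (adjusted p = 0.105 by limma), and fitted on spleen and iLN alone -1.68 (adjusted p = 0.0471). Against mLN it was lost without mLN replicates 1, 3 or 4 or iLN replicate 3 (adjusted p = 0.0112 to 0.0132), and fitted on both LNs alone it was -1.94 (adjusted p = 0.0523). The genes Gm16014 and Gm16015 overlap Cd38 in its introns and held 23 and 2 counts over all libraries. The iLN and thymus levels overlapped and their difference was not called (-0.94 ± 0.33, adjusted p = 0.141). Thymus was 0.594 times spleen in the fit and was not called (-0.75 ± 0.30, adjusted p = 0.302). The genes most like Cd38 were Bora (r = 0.910, rho = 0.821) and Etv5 (r = 0.909, rho = 0.850).

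The products of Entpd1 and Nt5e act one after the other on extracellular ATP. Entpd1, at chr19:40612366-40741602 (ENSMUSG00000048120), was 59.7, 69.1, 53.4 and 65.8 CPM in thymus replicates 1 to 4. It was 22.1, 46.3, 29.9 and 41.9 CPM in spleen and 37.6, 46.1, 21.6 and 34.5 CPM in mLN. It was, in iLN replicates 2 to 4, 35.3, 20.0 and 26.9 CPM. Every thymus library was above every other library, and the other tissues overlapped. No comparison passed in edgeR (4 tissues, adjusted p = 0.0529; iLN against thymus, -1.15 ± 0.30, adjusted p = 0.0427; thymus against spleen, 0.82 ± 0.27, adjusted p = 0.169). DESeq2 called the 4 tissues (adjusted p = 0.00584) and iLN against thymus (-1.14, adjusted p = 0.00644). The genes most like Entpd1 were Itga1 (r = 0.837, rho = 0.804) and Polr2i (r = 0.832, rho = 0.782).

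Nt5e, at chr9:88327197-88372092 (ENSMUSG00000032420), was lowest in spleen. It was 29.3, 29.8, 33.4 and 19.9 CPM in spleen replicates 1 to 4. It was 71.1, 66.9, 50.7 and 62.0 CPM in thymus and 109, 106, 102 and 108 CPM in mLN. In iLN replicates 2 to 4 it was 61.5, 123 and 56.3 CPM. All spleen libraries lay below all others, and mLN lay above thymus without overlap, whereas iLN spanned both. Nt5e was 3.77-fold higher in mLN than in spleen (1.92 ± 0.25, adjusted p = 3.91e-04 by edgeR) and 2.86-fold higher in iLN than in spleen (1.52 ± 0.26, adjusted p = 0.00206). The ratio of mLN to spleen was 3.93 in batch First and 3.63 in batch Second, where the tests with 2 libraries a tissue did not pass (adjusted p = 0.0689 and 0.115). The iLN call was lost without iLN replicate 3 (1.06, adjusted p = 0.0110) and without spleen replicate 4 (1.36, adjusted p = 0.0137). Thymus was 2.23-fold above spleen and just missed the threshold (1.16 ± 0.24, adjusted p = 0.0107). DESeq2 called it (1.17, adjusted p = 2.77e-04), and so did edgeR without iLN replicate 2, 3 or 4 (adjusted p = 0.00804, 0.00127 and 0.00668). The difference between mLN and thymus was not called (0.76 ± 0.24, adjusted p = 0.109).

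Nt5e was the one member called for the mean of both LNs against the mean of spleen and thymus (1.14 ± 0.18, adjusted p = 6.68e-04 by edgeR), and it was 2.2-fold higher. P2rx7 (0.80 ± 0.23, adjusted p = 0.0582) and Art2b were not called there, and this contrast averages a high and a low tissue on each side for them. Without iLN replicate 2 both were called, at 1.07 (adjusted p = 8.53e-04) and 1.13 (adjusted p = 1.86e-04). The call of Nt5e was lost when the LN libraries were pooled into 1 group and fitted against the pooled others (1.08, adjusted p = 0.0322). The genes most like Nt5e were Prdx6 (r = 0.884, rho = 0.846) and Phactr2 (r = 0.861, rho = 0.746).

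Adora2a, at chr10:75316877-75334784 (ENSMUSG00000020178), was not called in any comparison. It was 23.3, 32.3, 23.7 and 52.4 CPM in thymus replicates 1 to 4. It was 28.4, 36.2, 46.3 and 55.9 CPM in spleen and 42.1, 13.3, 62.4 and 46.2 CPM in mLN. In iLN replicates 2 to 4 it was 31.6, 13.3 and 8.21 CPM. Each pair of tissues overlapped. The largest fitted difference, iLN against spleen (-1.18 ± 0.49, adjusted p = 0.224 by edgeR), was not called, and the ratio of these means was 0.21 in batch First and 0.977 in batch Second. The genes most like it were Pgs1 (r = 0.881, rho = 0.893) and Hspbp1 (r = 0.851, rho = 0.857). Adora1 and Adora2b were at 0 counts in all libraries, and Adora3 had 14.6 counts over all of them, so that Adora2a was the one adenosine receptor gene tested.

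**Figure D3:**
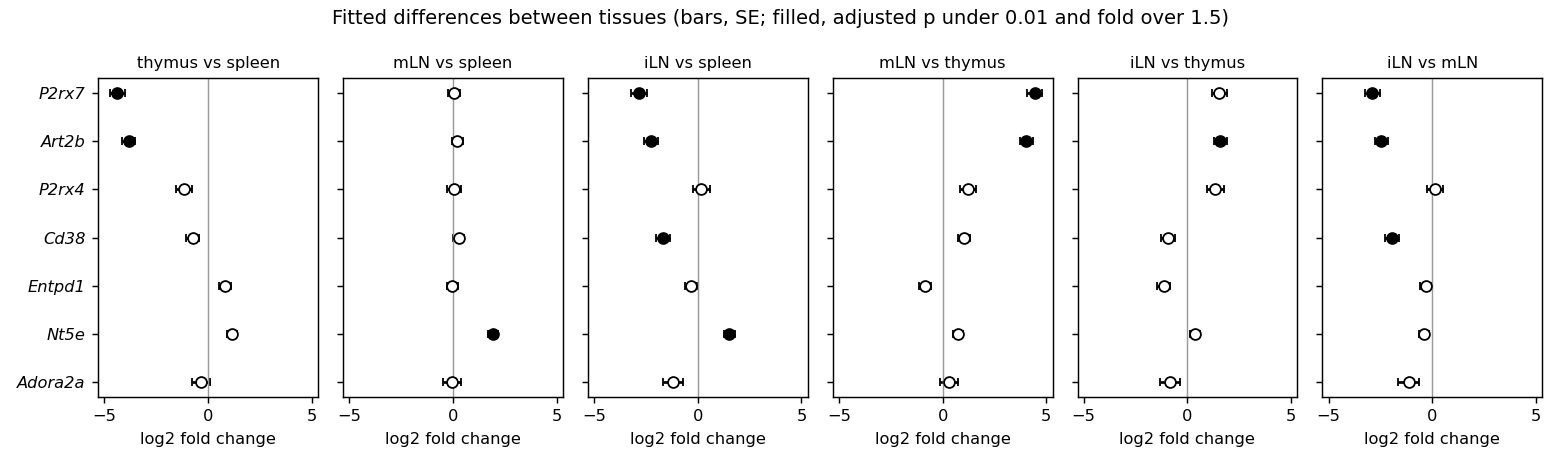
Fitted log2 fold changes of the 7 genes in the 6 pairs of tissues; points are estimates, horizontal bars SE, and filled points had an adjusted p under 0.01 and a fold change over 1.5. P2rx7 and Art2b reach -4.38 and -3.83 in thymus against spleen and lie near 0 in mLN against spleen, where Nt5e alone is called.

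Per length, the order of the genes differed between tissues. In spleen, Art2b was highest at 280 ± 150 TPM (SD, n = 4), followed by P2rx7 at 156 ± 38.3 TPM, whose range overlapped that of Art2b. Cd38 came next at 39.1 ± 16.5 TPM, below every P2rx7 value. Adora2a, P2rx4, Entpd1 and Nt5e followed at 21.8 ± 5.12, 15.8 ± 4.69, 13.4 ± 4.72 and 10.1 ± 2.83 TPM, and each overlapped the next. In mLN, Art2b (298 ± 88.1 TPM) lay above P2rx7 (164 ± 12.6 TPM) without overlap, and Cd38 (42.2 ± 8.55 TPM) and Nt5e (40 ± 3.47 TPM) overlapped. Adora2a, Entpd1 and P2rx4 were at 22.6 ± 10.9, 19 ± 14 and 14.8 ± 2.65 TPM there, with overlapping ranges.

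In thymus no gene stood out. Entpd1 (24.8 ± 6.82 TPM), Nt5e (22.5 ± 6.67), Art2b (21.9 ± 16.5), Cd38 (21.8 ± 6.99), Adora2a (17.4 ± 7.17) and P2rx4 (10.6 ± 6.20) each overlapped the next (SD, n = 4), and P2rx7 had the lowest mean at 6.93 ± 2.34 TPM. By mean TPM, P2rx7 thus ranked second of the 7 in spleen and mLN and last in thymus. In iLN, Art2b (39.3 ± 20.8 TPM), Nt5e (27.5 ± 6.01), P2rx4 (23.7 ± 11.3), P2rx7 (21.2 ± 18.6), Cd38 (13.3 ± 9.23), Entpd1 (10.8 ± 4.19) and Adora2a (9.87 ± 7.77) each overlapped the next (SD, n = 3). TPM depends on the effective length that RSEM estimated from the isoforms in each library. For P2rx7 that length was 3886 bases in iLN replicate 3 against 2099 to 3269 in all other libraries, and for P2rx4 it was 731 bases in iLN replicate 3 against 1073 to 2846. For Art2b it was 2234 to 2631 bases in iLN and 1674 to 2166 elsewhere. For Entpd1 it was 1576 bases in mLN replicate 2 against 2587 to 4045 in all other libraries. That library had 39.0 TPM of Entpd1, against at most 17.9 TPM in the other mLN libraries.

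**Figure D4:**
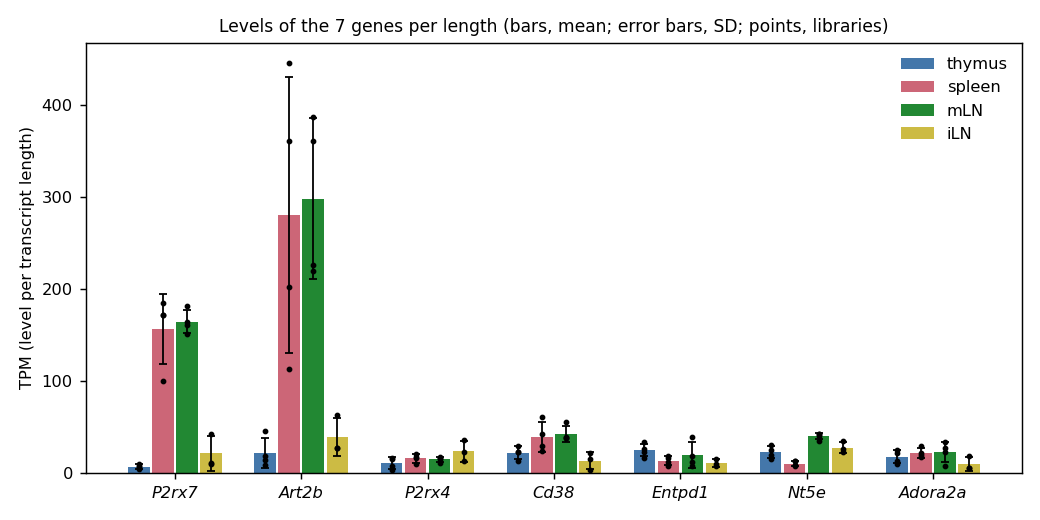
TPM of the 7 genes by tissue; bars are means, error bars SD (n = 4, or 3 for iLN) and points libraries. Art2b and P2rx7 exceed the other genes in spleen and mLN (280 and 156 TPM, and 298 and 164 TPM). In iLN their ranges overlap those of other genes, with Art2b highest by mean (39.3 TPM). In thymus Art2b overlaps the other genes, whereas P2rx7, lowest by mean (6.93 TPM), overlaps only Art2b and P2rx4.

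Other genes of the pathway were taken from lists. Of 62 genes in 8 lists, which include the 7, 35 were tested, and 3 of the 28 tested genes outside the 7 were called in at least 1 of the 8 comparisons (10.7%), beside 4.16% of all genes tested. These were Art2a-ps, Dpp4 and Nmnat2. Art2a-ps shares sequence with its neighbour Art2b and moved with it, so it is not independent of the 7. The surface NAD enzymes had 3 of 8 tested, and beside Art2b and Cd38 these were completed by Art2a-ps. Of 4 tested P2Y receptors none was called, and their median log2 fold change lay between -0.17 and 1.18 over the pairs of tissues. The highest median, in thymus against spleen, rested on P2ry1 (1.78 ± 1.11) and P2ry14 (1.78 ± 1.46), which averaged only 0.619 and 0.653 CPM in spleen. There P2ry10 was at 0.20 ± 0.31 and P2ry10b at 0.57 ± 0.39. Of 3 tested ectonucleotidases only Nt5e was called, and Enpp1, which also splits ATP, was not. Of the P2X and adenosine receptors, P2rx7 alone was called. Of 5 tested genes for adenosine removal, Dpp4 was called. Its product is CD26, whose part in adenosine removal in these cells was not tested. Dpp4 was 39.2 ± 12.8 CPM in thymus, 66.7 ± 17.9 in spleen, 103 ± 7.42 in mLN (SD, n = 4 each) and 74.2 ± 4.21 in iLN (n = 3). It was 2.66-fold higher in mLN than in thymus (1.41 ± 0.22, adjusted p = 6.01e-04 by edgeR) and 1.75-fold higher in the mean of LNs than in that of spleen and thymus (0.81 ± 0.16, adjusted p = 0.00479).

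Of 9 tested genes for NAD synthesis, Nmnat2 was called. This NAD-forming adenylyltransferase was 14 to 22 CPM in thymus, 7.11 to 11 in spleen, 2.2 to 9.25 in mLN and 0.542 to 3.59 in iLN, so that spleen and mLN overlapped. It was 4.88-fold lower in LNs than in spleen and thymus (-2.29 ± 0.47, adjusted p = 0.00711 by edgeR). Of the 8 tested genes for ATP release and for steps after P2X7, which include Panx1, Casp1 and Gsdmd, none was called, and the ninth, Nlrp3, had 1 count over all libraries. In that list the median log2 fold change lay between -0.17 and 0.24.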

How the data were processed

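RNA of sorted iNKT cells from 15 samples was sequenced by the authors in paired reads (NuGEN Ovation Ultralow libraries). They trimmed reads with cutadapt 1.7.1 and quantified genes with RSEM 1.2.31 and Bowtie2 2.2.9 on GRCm38. The deposited expected counts are RSEM estimates with no normalization, in which a fragment that fits several genes is shared between them, and strand was not stated to be used. The deposited TPM values divide them by the effective length, also deposited, and scale each library to the same sum, a sum that includes the genes of or overlapping ribosomal RNA (16.1% to 32.3% of counts). The FPKM column was not used.

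Expected counts were rounded. Low genes were removed with filterByExpr, and the rest were normalized by TMM and tested with the quasi-likelihood test of edgeR 4.0.16 (limma 3.58.1, R 4.3.3) over all 15 libraries, with tissue and batch as factors. The fit was tested on simulated data. The text names the 7 genes, list genes called in at least 1 comparison, and for each of the 7 the 2 genes with the highest Pearson's r. The members and lists were chosen with earlier results of these data known, and no list was given a test. Alternatives were RLE normalization, DESeq2 1.42.0, no filter, at least 10 counts in every library, no batch term, a replicate block, no rRNA genes, limma on log2(TPM + 1), only the groups compared, each batch alone, Art2b summed with Art2a-ps, length-scaled CPM, and leaving out each library. All 7 symbols matched 1 identifier each, coordinates are GENCODE M21 (GRCm38), and iLN replicate 1 was not analysed here. Of the marker lists, 2 genes are not reported here and are left out of the sums.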

Additional observations from a re-analysis of the deposited data

Results flagged for a closer look

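In 1 group of 4 libraries, a value stood apart from the rest by Dixon's test at the 95% level. Cd38 in mLN replicate 1 was 119 CPM, against 82.1 to 85.3 CPM in the other mLN libraries (the gap was 0.914 of the group's range). Of 21 groups examined, chance flags about 1 in 20. Without that library, Cd38 in iLN against mLN was -1.85 and not called (adjusted p = 0.0112 by edgeR).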

How the results depend on the processing

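P2rx7 and Art2b stayed lower in thymus than in spleen and mLN, and lower in iLN than in spleen, and were called there, under every alternative run. With any 1 library left out, the number of the 7 genes called is given beside the range of the share of all genes. It was stable in thymus against spleen (2 to 3, beside 0.846% to 1.65%) and mLN against thymus (2, beside 0.923% to 1.65%). It was also stable in mLN against spleen (1, beside 0.178% to 0.694%) and over the 4 tissues (4, beside 2.41% to 3.65%). It ranged from 2 to 4 for iLN against spleen (0.799% to 1.98%) and 0 to 2 for iLN against thymus (0.768% to 1.75%). For iLN against mLN it was 2 to 3 (0.326% to 0.49%), and for LNs against spleen and thymus 1 to 3 (1.17% to 1.89%). Batch First alone called 0 of the 7 in mLN against spleen (beside 0 of all 13013 genes tested), 2 in iLN against spleen (0.622%), 1 in iLN against mLN (0.177%), 0 in LNs against spleen and thymus (0.73%) and 2 over the 4 tissues (1.38%), and batch Second alone called 0 in mLN against spleen (0 of all 15515), with at most 2 libraries a tissue. Fits of only the groups compared called 2 in iLN against spleen (0.69%), 0 in iLN against thymus (1.17%), 0 in iLN against mLN (0.163%) and 0 in LNs against spleen and thymus (0.7%). TPM called 2 in iLN against spleen (0.64%) and 0 in iLN against thymus (0.816%), and the fit with no batch term called 0 in iLN against thymus (0.904%). DESeq2, no filter and the strict filter called 3, 2 and 2 in iLN against thymus (2.06%, 1.98% and 1.88% of all genes). In LNs against spleen and thymus they called 2, 3 and 2 (2.01%, 2.19% and 2.31%). Over all genes, DESeq2 and no filter called 407 and 393 in thymus against spleen (179 in the edgeR fit used above) and 307 and 279 in iLN against mLN (64 in that fit). The causes were not tested. Of the 62 listed genes, 27 had too few counts for a test.

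The replicate numbers were not taken as pairs. Same-numbered libraries deviated from their tissues with an average correlation of 0.122 (14 of 21 pairs over 0.1), against 0.107 for other libraries of the same batch, and 10 of 15 libraries correlated best with their own number. The replicate block (in place of batch) called 2 and 0 of the 7 in mLN and iLN against thymus (1.5%, 1.18% of all). It called 3, 1 and 3 in thymus, mLN and iLN against spleen (1.28%, 0.515%, 1.29%) and 3 in iLN against mLN (0.456%). It called 1 in LNs against spleen and thymus (1.49%) and 4 over the 4 tissues (2.93%). It changed the calls of Art2b in iLN against thymus (1.58, adjusted p = 0.0102 by edgeR), Cd38 in iLN against spleen (-1.73, 0.0107) and Nt5e in thymus against spleen (1.18, 0.00968).

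Of small uncalled differences, 19 values turned direction, 11 of them on leaving out 1 library. In mLN against spleen these were P2rx7 (-0.05 without spleen replicate 3, -0.03 without mLN replicate 1), P2rx4 (-0.05 on TPM, -0.03 without mLN replicate 1), Entpd1 (2.2e-05 with no batch term, 0.0035 with the replicate block, 0.29 on TPM, 0.29 in batch Second, 0.09 and 0.13 without spleen replicates 2 and 4, 0.13 without mLN replicate 3) and Adora2a (0.01 with the block, 0.07 in batch First, 0.10 and 0.25 without spleen replicate 4 and mLN replicate 2). The others were P2rx4 without iLN replicate 4 (-0.43 against spleen, -0.48 against mLN), Cd38 in LNs against spleen and thymus on those groups alone (0.03) and Nt5e in iLN against thymus without iLN replicate 3 (-0.10). Over all single libraries left out, these values ranged from -0.05 to 0.17 (P2rx7), -0.03 to 0.12 (P2rx4), -0.26 to 0.13 (Entpd1) and -0.27 to 0.25 (Adora2a) in mLN against spleen, from -0.43 to 0.44 and -0.48 to 0.38 for P2rx4 in iLN, and from -0.10 to 0.58 for Nt5e. All 28 mean TPM levels moved by less than 1 SD under length-scaled CPM.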
